A study of Macaca fascicularis with 9 samples.

Results

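The genes described here are 8 genes that astrocytes use to keep the extracellular space of the brain steady: AQP4, GFAP, SLC1A2, SLC1A3, ALDH1L1, GJA1, GLUL and KCNJ10. They were chosen by name. All 8 were among the 29128 features of the matrix, of which 14893 carry a gene symbol. They were followed through 4411 astrocyte nuclei (authors' clusters 6 and 12) out of 79994 nuclei, through the other cell types, and across 3 treatment groups. Nuclei came from frozen brain, labelled thalamus, of 9 female cynomolgus monkeys, and ages are not given in the labels. Both drugs target MALAT1, a long noncoding RNA found in nuclei. Of the animals, 3 received saline into a vein (4 biweekly doses), 3 received a single 4 mg dose of an antisense oligonucleotide against MALAT1 into the spinal fluid (MALAT1 ASO IT, here "ASO"), and 3 received OTV:MALAT1 into a vein (4 biweekly doses of 30 mpk, here "OTV"). OTV is a carrier that takes an oligonucleotide across the blood vessel wall of the brain by way of the transferrin receptor. Brains were collected 2 weeks after dosing ended. The ASO animals thus differ from both other groups in route and number of doses, and no saline was given into the spinal fluid in the groups used here.

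Astrocytes clear glutamate and potassium that neurons release, and they move water across the endfeet with which they cover blood vessels. SLC1A2 and SLC1A3 (known as GLT-1 and GLAST) carry glutamate into the cell, and GLUL, glutamine synthetase, turns it into glutamine. KCNJ10 (Kir4.1) is a potassium channel, AQP4 is the water channel of the endfeet, and GJA1 (connexin 43) joins astrocytes through gap junctions. ALDH1L1 is a folate enzyme used as an astrocyte marker, and GFAP is the intermediate filament that rises when astrocytes react to injury. Several of these genes are known outside astrocytes too: GLUL and KCNJ10 in oligodendrocytes, and SLC1A3 in microglia under some conditions.

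Levels are raw counts of unique molecules (UMIs) summed over the nuclei of a type in each animal, then scaled to CPM, the UMIs of a gene per 1000000 UMIs of that sum. Total UMIs ran from 19981249 to 98850459 per library. Astrocytes numbered 138 to 961 nuclei per animal, with 1127145 to 9318800 UMIs and a median of 3138 to 12279.5 UMIs per nucleus. Of 79232 distinct barcode sequences, 760 occurred in more than 1 library, and 77 of these belonged to astrocyte nuclei. The MALAT1 share of astrocyte UMIs was 6.02% ± 1.40 for saline, 5.76% ± 0.706 for ASO and 4.11% ± 0.446 for OTV (mean ± SD of 3 animals), and edgeR's adjusted p was 0.179 for OTV against saline and 1.00 for ASO against saline.

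Before any comparison, 3 libraries have to be named because they hold astrocytes that go against the thalamus label: saline 1, saline 3 and ASO 3. Among nuclei with a UMI of a regional factor such astrocytes were the larger part in saline 3 and ASO 3, and saline 1 was a mixture. LHX2, a transcription factor of the telencephalon, was abundant in the astrocytes of saline 1 (32.8 CPM), saline 3 (87.3 CPM) and ASO 3 (95.9 CPM). In the other 6 animals LHX2 ran from 0 to 3.29 CPM. IRX3, a factor of the thalamic side of the brain, stood at 1.10 CPM in saline 3 and 1.06 CPM in ASO 3 against 7.52 to 17.5 CPM in the other 7 animals, with saline 1 at 13.7 CPM. Neurons of saline 1, saline 3 and ASO 3 were also the highest in PDE10A, a gene of striatal neurons (1999, 6511 and 4383 CPM, against 254 to 1234 CPM elsewhere). These 3 libraries had 364 to 527 neurons each, the other 6 had 17 to 112. In astrocytes 0 of 3 telencephalic and 0 of 5 thalamic-side factors were called in ASO against saline, OTV against saline or OTV against ASO, where 0.0147%, 15.4% and 22.0% of all genes were. Their medians were -2.22 and 0.57 for OTV against saline. No OTV library is among the 3, so region and treatment overlap in part.

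The astrocyte label was checked against these genes: 5 of the 8 had a higher level in astrocytes than in every other named type in all 9 animals, with ranges that did not overlap those of the next type. For AQP4 the lowest, median and highest astrocyte sums were 163, 430.2 and 915 CPM, against 12.3, 21.2 and 26.9 CPM in oligodendrocyte precursor cells (OPCs), the next type. SLC1A2 had 3216, 5530.2 and 13800 CPM in astrocytes and 339, 438 and 633 CPM in OPCs. GJA1 had 41.2, 85.2 and 268 CPM in astrocytes, and its next type, myeloid cells, reached 10.7 CPM. GFAP (median 286 CPM) and ALDH1L1 (median 131 CPM) were also followed by OPCs, with medians of 42.1 and 29.8 CPM. These are levels of chosen astrocyte genes in annotated types and are given as a description, with no test.

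SLC1A3, GLUL and KCNJ10 were shared with other glia. SLC1A3 stood at a median of 1654 CPM in astrocytes and 1151 CPM in myeloid cells, and astrocytes were higher in 7 of 9 animals, with overlapping ranges (1068 to 3651 and 515 to 2392 CPM). OPCs followed at 157 CPM, oligodendrocytes at 115 CPM and neurons at 20.1 CPM. Among the glutamate transporters, SLC1A2 did not share this myeloid level, with a myeloid median of 29.9 CPM. GLUL had a median of 349 CPM in astrocytes and 296 CPM in oligodendrocytes, with astrocytes higher in 7 of 9 animals. KCNJ10 had 166 and 123 CPM in the same types, with astrocytes higher in 8 of 9 animals. For GLUL and KCNJ10 the neighbours in this order therefore overlapped, and the next lower types (myeloid cells at 98.3 CPM for GLUL, OPCs at 65.3 CPM for KCNJ10) were lower than oligodendrocytes in 9 of 9 animals.

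**Figure D1:**
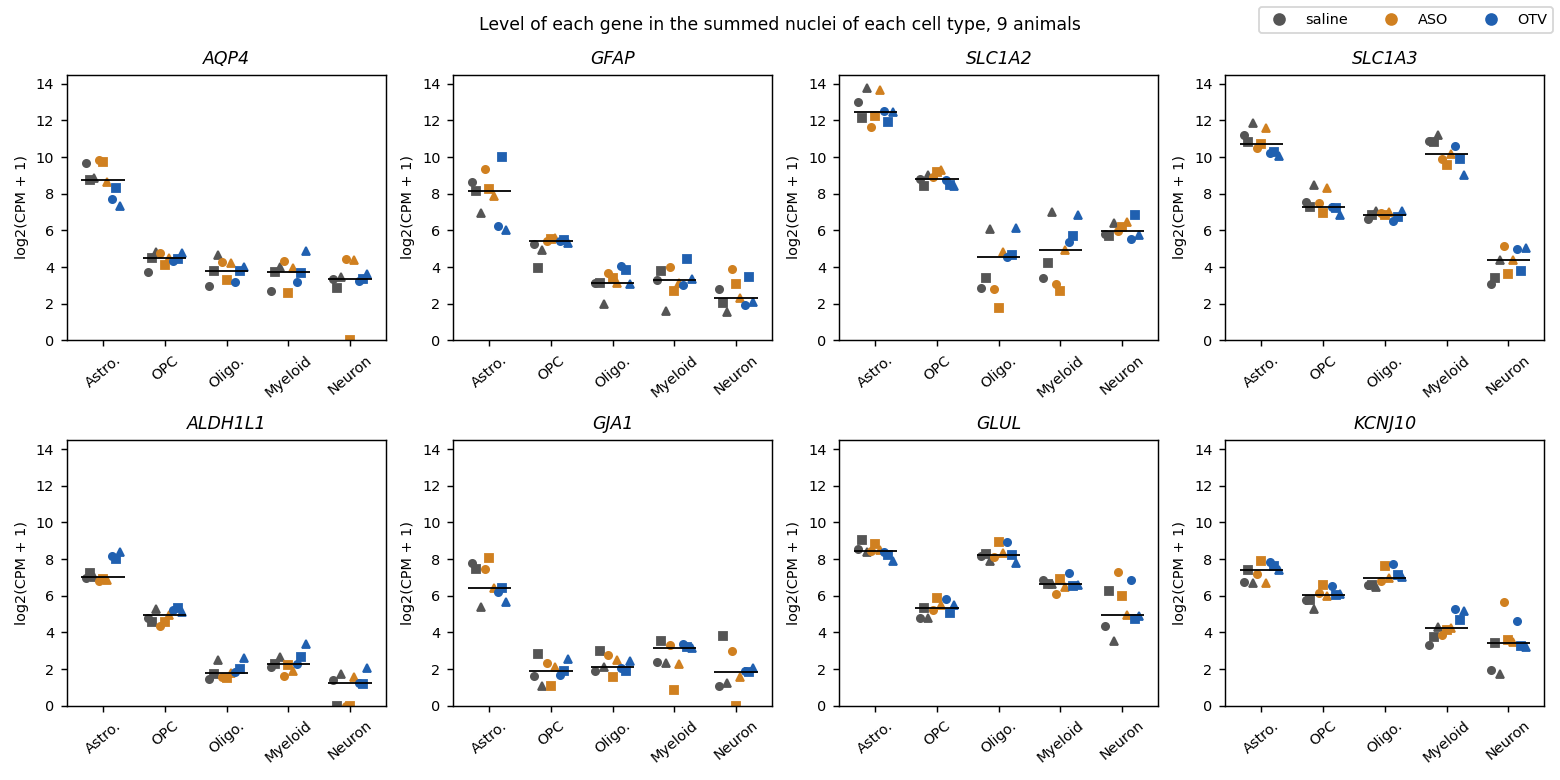
Level of each gene as log2(CPM + 1) in the summed nuclei of 5 cell types, 1 point per animal, coloured by group (circle, square and triangle for animals 1, 2 and 3), with a bar at the median of 9 animals. AQP4, GFAP, SLC1A2, ALDH1L1 and GJA1 peak in astrocytes, while SLC1A3 is nearly as high in myeloid cells and GLUL and KCNJ10 in oligodendrocytes.

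At the low end of this order the ranges of the last and the next to last type overlapped, except for SLC1A3. Its oligodendrocyte sums (89.4 to 133 CPM) lay above its neuron sums (7.34 to 34.8 CPM) in 9 of 9 animals. AQP4 in oligodendrocytes, myeloid cells and neurons had medians of 13.02, 12.1 and 9.15 CPM, and each neighbour was higher in 6 and 5 of 9 animals. GJA1 had a median of 3.34 CPM in oligodendrocytes, 2.66 CPM in OPCs and 2.61 CPM in neurons, and each neighbour was higher in 8 and 5 of 9 animals. In droplet data free RNA can give UMIs of genes that a cell does not express, and its amount was not measured here. The shares of nuclei with a UMI were compared after each nucleus was thinned to 1000 UMIs, with no nucleus left out. AQP4 was then seen in 36.8% ± 15.6 of astrocytes and in 1.20% to 2.22% of the other types (mean over animals; SD, n = 9). Without thinning these shares were 82.2% and 4.26% to 12.4%, at median depths of 7769 UMIs in astrocytes and 3900 to 12648 UMIs in the other types.

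The same thinned shares differed between types for the genes that astrocytes share with other glia. SLC1A3 was seen in 75.0% ± 11.3 of astrocytes, 60.6% ± 15.4 of myeloid nuclei, 16.3% ± 7.01 of OPCs, 10.1% ± 1.22 of oligodendrocytes and 2.98% ± 2.63 of neurons (SD, n = 9). SLC1A2 was seen in 90.3% ± 7.65 of astrocytes and 33.7% ± 6.81 of OPCs, but in 2.91% to 7.12% of the other 3 types. GLUL was seen in 29.8% ± 6.1 of astrocytes and 26.5% ± 6.42 of oligodendrocytes. Its shares elsewhere were 4.08% ± 1.19 in OPCs, 9.94% ± 2.31 in myeloid nuclei and 11.2% ± 11.9 in neurons. KCNJ10 was seen in 14.9% ± 4.80 of astrocytes and 12.02% ± 3.82 of oligodendrocytes. It was seen in 6.56% ± 1.28 of OPCs, 2.18% ± 0.923 of myeloid nuclei and 3.93% ± 5.17 of neurons. Unthinned shares were 97.2%, 84.2%, 59.2%, 38.5% and 15.2% for SLC1A3 in the same order of types, 97.5% and 80.6% for SLC1A2, 78.9% and 72.0% for GLUL, and 61.0% and 46.7% for KCNJ10. An astrocyte nucleus carried a median of 6 of the 8 genes at full depth, an OPC 3, an oligodendrocyte 2, and a myeloid nucleus or neuron 1. At 1000 UMIs these medians were 3 in astrocytes, 1 in OPCs and myeloid nuclei and 0 in oligodendrocytes and neurons.

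Within the astrocytes, cluster 12 was a small and shallow group: 538 of 4411 nuclei with a median of 1935 UMIs, against 3873 nuclei and 8312 UMIs in cluster 6. It held 16, 0 and 53 nuclei of the ASO animals, 9, 33 and 44 of the saline animals and 114, 5 and 264 of the OTV animals, so its pooled levels are mostly those of OTV 1 and OTV 3. The clusters were therefore compared within the 5 animals that had at least 30 nuclei in cluster 12. SLC1A2 and SLC1A3 were lower in cluster 12 in 5 of 5 animals, at 0.729 to 0.905 and 0.638 to 0.897 times the cluster 6 level. GJA1 was higher in 4 of 5 animals, at 0.959 to 2.11 times, on 6 to 35 UMIs per animal. The other 5 genes had ratios on both sides of 1 (AQP4 0.763 to 1.39, GFAP 0.592 to 2.06, ALDH1L1 0.681 to 1.21, GLUL 0.908 to 1.51, KCNJ10 0.802 to 1.14). Cluster 12 thus carried all 8 genes, and whether its treatment changes differ from those of cluster 6 was not tested: ASO 2, OTV 2 and saline 1 had 0, 5 and 9 nuclei in it.

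Among the nuclei that the authors named unknown, cluster 16 (118 nuclei) expressed some of the genes. It had 325 CPM of AQP4, 1472 CPM of SLC1A3 and 159 CPM of GFAP, against 531, 1859 and 337 CPM in cluster 6, but 199 CPM of SLC1A2 against 6218 CPM. Its leading genes from the marker lists were DNAH9 (3115 CPM), CFAP43 (2010 CPM) and SPAG17 (1058 CPM), components of motile cilia, which stood at 59.95, 35.3 and 3.09 CPM in cluster 6. Of its nuclei, 75 came from ASO 3, 25 from saline 1 and 14 from saline 3, the libraries named above. Cluster 15 (213 nuclei), high in the mural cell genes RGS5 (1025 CPM) and PDGFRB (883 CPM), had 647 CPM of SLC1A3 and 10.4 CPM of AQP4.

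Genes with the most similar pattern over the 17 clusters were ranked by Pearson's r of log2(CPM + 1), among 10672 genes outside the 8 with a symbol and at least 10 CPM in some cluster. The clusters share the same 9 libraries, so r is a description. For AQP4 these were EFEMP1 (r = 0.979) and MLC1 (r = 0.972), the latter an endfoot membrane protein. For GJA1 they were MYBPC1 (r = 0.985) and EFEMP1 (r = 0.978). ALDH1L1 was followed by SLC25A18, a mitochondrial glutamate carrier (r = 0.976), and by FADS2, a fatty acid desaturase (r = 0.973). SLC1A2 went with PPP1R17 (r = 0.975) and GMNN (r = 0.970), GFAP with SALL2 (r = 0.956) and IRX3 (r = 0.955), and SLC1A3 with ACSS1 (r = 0.947) and CHD2 (r = 0.937). GLUL went with MTMR10 (r = 0.942) and TESK2 (r = 0.938), and KCNJ10 with CDH20 (r = 0.950) and SWT1 (r = 0.934); TESK2 and CDH20 were both high in astrocyte cluster 6 (428 and 2398 CPM) and in oligodendrocyte cluster 0 (529.8 and 2250 CPM).

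Across the 9 animals the astrocyte levels of both glutamate transporters were highest in the 3 libraries with LHX2. SLC1A2 stood at 8224, 4551 and 13800 CPM in saline 1, 2 and 3, at 3216, 4916 and 13135 CPM in ASO 1, 2 and 3, and at 5759, 3846 and 5530.2 CPM in OTV 1, 2 and 3. Saline 3, ASO 3 and saline 1 were the 3 highest, in that order. SLC1A3 had 2323, 1821 and 3651 CPM in saline, 1415, 1654 and 3091 CPM in ASO and 1216, 1256 and 1068 CPM in OTV animals, with the same 3 libraries on top. GJA1 was lowest in saline 3 among saline animals and in ASO 3 among ASO animals, with 216, 178 and 41.2 CPM in saline, 175, 268 and 84.8 CPM in ASO and 71.8, 85.2 and 50.3 CPM in OTV animals.

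Saline 1 allowed a comparison inside 1 library, chosen after these values were seen. Of its 275 astrocyte nuclei, 48 had a UMI of LHX2 and none of IRX1, IRX2, IRX3, IRX5 or OTX2, and 74 had the reverse, with median depths of 10033.5 and 9782.5 UMIs. SLC1A2 was 12417 CPM (95% Poisson interval 12108 to 12731) in the first set and 5691 CPM (5520.4 to 5866) in the second. SLC1A3 was 2996 CPM (2845 to 3153) and 1671 CPM (1579 to 1767). AQP4 was 790.4 CPM (714 to 873) and 635 CPM (578 to 695), an order that did not hold across animals, with 341 and 435 CPM in LHX2 nuclei of ASO 3 and saline 3 and 420.2 to 843 CPM in IRX or OTX2 nuclei of saline 2, ASO 1 and ASO 2. GJA1, at 224 CPM (185 to 270.2) and 217 CPM (185 to 253), and GLUL, at 396 and 411 CPM, had overlapping intervals. The intervals cover counting error only, and nuclei of a library are not replicates. Saline 3 had 104 nuclei of the first kind and 5 of the second, ASO 3 had 204 and 23, and the remaining 6 animals had 0 to 14 of the first kind and 71 to 530 of the second. Nuclei with no UMI of these factors numbered 143, 173 and 253 in saline 1, saline 3 and ASO 3 and 56 to 767 in the others. SLC1A2 in LHX2 nuclei of saline 3 and ASO 3 was 14414 and 13861 CPM, while in IRX or OTX2 nuclei of the 7 animals with at least 30 of them it ran from 3228 to 6008 CPM.

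**Figure D2:**
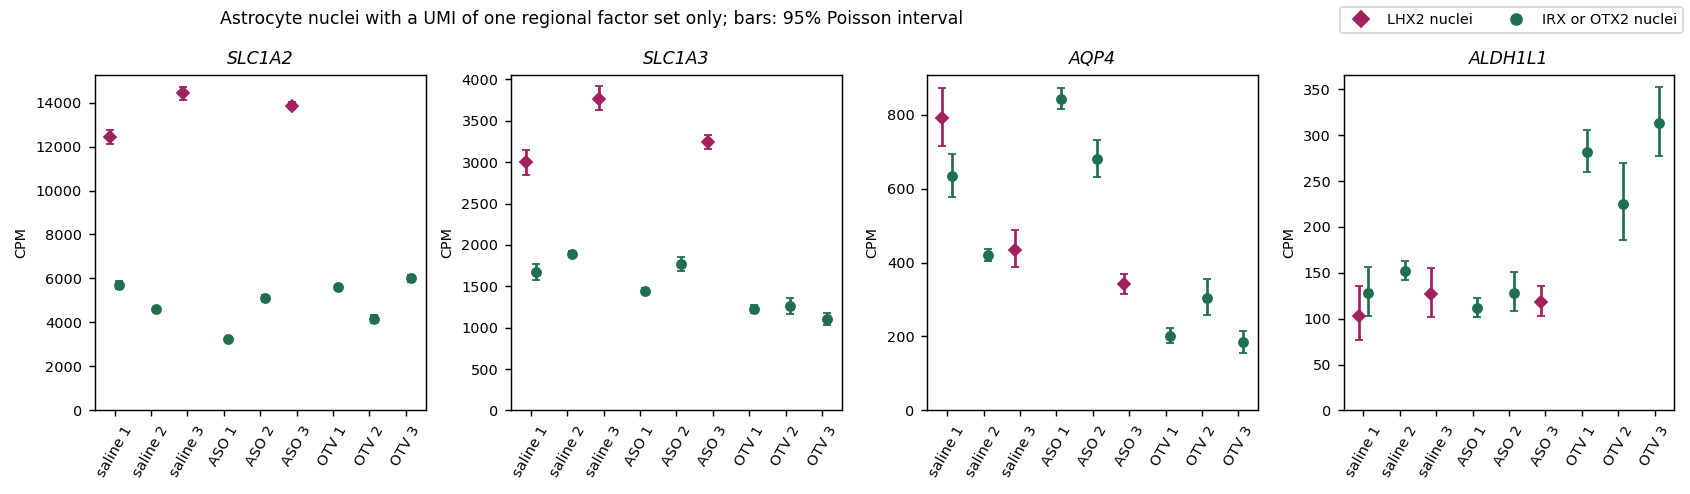
CPM of 4 genes in astrocyte nuclei with a UMI of LHX2 only (diamonds) or of IRX genes or OTX2 only (circles), per animal with at least 30 such nuclei, with 95% Poisson intervals for counting error. SLC1A2 and SLC1A3 are higher in every diamond than in any circle, also inside saline 1 (12417 against 5691 and 2996 against 1671 CPM). AQP4 is higher in the diamond of saline 1 (790.4 against 635 CPM) but overlaps across animals, while ALDH1L1 and AQP4 in circles are set apart in the 3 OTV animals.

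OTV against saline in astrocytes gave 3 calls among the 8 genes: ALDH1L1 rose, and AQP4 and SLC1A3 fell. That is 3 of 8 genes called by edgeR's quasi-likelihood test at an adjusted p under 0.05, against 15.4% of the 13608 genes tested in this comparison (6.27% higher, 9.12% lower). The median log2 fold change of the 8 genes was -0.62, and that of all genes tested was -0.02. In ASO against saline 0 of 8 were called, where 0.0147% of all genes were called (2 genes by edgeR, 70 by DESeq2, and 830 at an unadjusted p under 0.05). In OTV against ASO 2 of 8 were called, ALDH1L1 higher and AQP4 lower, against 22.0% of all genes (9.51% higher, 12.5% lower). The OTV animals serve in both of these comparisons, so the comparisons are not independent.

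ALDH1L1, the folate enzyme, had 124, 152 and 131 CPM in saline, 110.5, 121 and 115 CPM in ASO and 281, 253 and 329 CPM in OTV animals. All 3 OTV animals were above the other 6. The mean was 288 ± 38.3 CPM in OTV and 135 ± 14.8 CPM in saline animals (SD, n = 3 each), a log2 fold change of 1.13 (SE 0.16, edgeR adjusted p = 0.00283). Against ASO animals (115 ± 5.16 CPM) it was 1.42 (SE 0.17, edgeR adjusted p = 0.000807). Both calls held when any single animal was left out (adjusted p 0.00355 to 0.0168 and 0.00133 to 0.00433). With saline 3 and ASO 3 left out the log2 fold change against saline was 1.13 (adjusted p = 0.00881), and with saline 1 left out as well, so that saline 2 stood alone and was assumed to vary like the other groups, it was 0.99 (adjusted p = 0.0869). Thinned to 1000 UMIs, 26.0%, 26.7% and 28.0% of OTV astrocytes had an ALDH1L1 UMI, against 10.1% to 16.8% in the other 6 animals.

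AQP4, the water channel, moved the other way. It had 822, 430.2 and 470.0 CPM in saline, 915, 859 and 399 CPM in ASO and 208, 313 and 163 CPM in OTV animals. All OTV animals were below all others. The log2 fold change was -1.32 against saline (SE 0.38, edgeR adjusted p = 0.0448) and -1.60 against ASO (SE 0.38, edgeR adjusted p = 0.0173). The call against saline was close to the threshold and was lost without saline 1, saline 2, saline 3, ASO 1, ASO 2, OTV 1 or OTV 3 (adjusted p 0.148, 0.0551, 0.0588, 0.0596, 0.0581, 0.111 and 0.166), and the one against ASO without ASO 1, ASO 2, OTV 1 or OTV 3 (0.0593, 0.0510, 0.0564 and 0.0786). Without saline 3 and ASO 3 it was kept (-1.42, adjusted p = 0.0223), and without saline 1, saline 3 and ASO 3 it was -0.88 (adjusted p = 0.134). The thinned share of nuclei with AQP4 was 18.9%, 27.8% and 14.9% in OTV animals and 33.9% to 56.5% in the others.

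SLC1A3, the GLAST transporter, fell from 2598 ± 945 CPM in saline to 1180.1 ± 98.9 CPM in OTV animals (SD, n = 3 each), a log2 fold change of -1.11 (SE 0.33, edgeR adjusted p = 0.0490). The groups did not overlap. With a term for a score of regional factors the log2 fold change was -0.50 (adjusted p = 0.0821), and without saline 1, saline 3 and ASO 3 it was -0.57 (adjusted p = 0.274). Without saline 3 and ASO 3 it was -0.76 (adjusted p = 0.0380). The call was also lost in turn without saline 1, saline 3, ASO 2, OTV 1, OTV 2 or OTV 3 (adjusted p 0.0982, 0.139, 0.0645, 0.0971, 0.112 and 0.165). In IRX or OTX2 nuclei SLC1A3 was 1671 and 1891 CPM in saline 1 and 2, 1439 and 1768 CPM in ASO 1 and 2 and 1224, 1256 and 1104 CPM in the OTV animals.

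**Figure D3:**
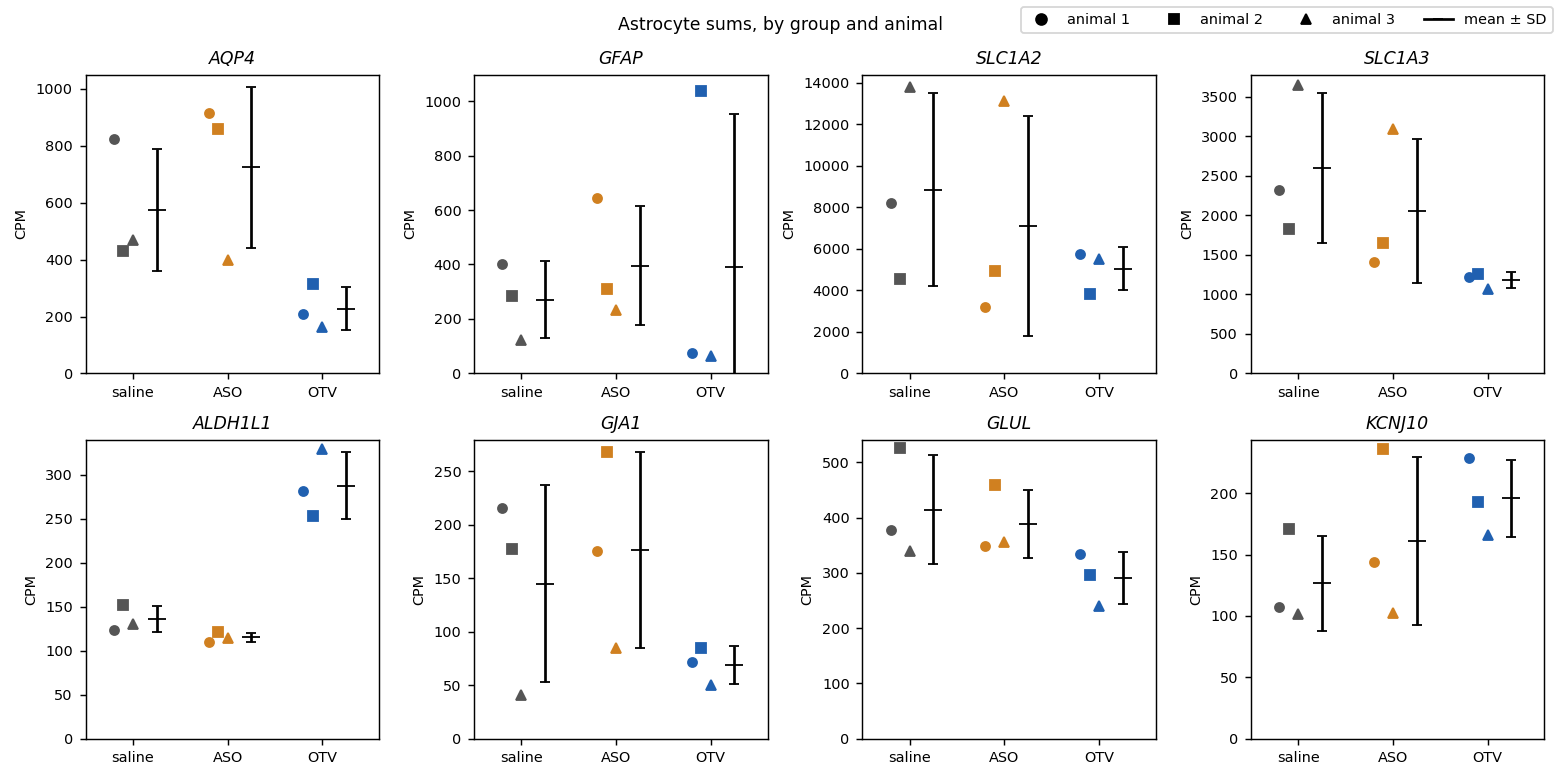
CPM of each gene in the astrocyte sums, 1 point per animal (circle, square and triangle for animals 1, 2 and 3), with the mean ± SD of each group of 3 beside the points (the GFAP bar of OTV reaches below the axis, which starts at 0). The OTV animals lie above all others in ALDH1L1 and below all others in AQP4, SLC1A3 and GLUL, and OTV 2 alone is high in GFAP at 1037 CPM. How many of all genes set the OTV animals apart in this way was not counted.

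The partner transporter SLC1A2 did not pass the test in any comparison, with 8858 ± 4657 CPM for saline, 7089 ± 5304 CPM for ASO and 5045 ± 1045 CPM for OTV (mean ± SD of 3 animals). Its log2 fold change of OTV against saline, -0.77 (SE 0.56, edgeR adjusted p = 0.375), turned to 0.28 with the regional term. GJA1, the gap junction gene, was -1.05 against saline (SE 0.61, edgeR adjusted p = 0.277) with all animals. Without saline 3 and ASO 3, both low in GJA1, it was -1.47 (adjusted p = 0.00904). Without saline 1 as well, which left saline 2 alone in its group, it was -1.32. With the regional term it was -1.76 (adjusted p = 0.0446). Over the 19 alternatives GJA1 was called in 3 and not called in 16. With a single animal left out it was never called (edgeR adjusted p 0.0601 to 0.579). In IRX or OTX2 nuclei GJA1 was 217 and 178 CPM in saline 1 and 2 and 73.4, 74.9 and 58.7 CPM in OTV 1, 2 and 3.

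GLUL, glutamine synthetase, and KCNJ10, the potassium channel, were the steadiest of the 8 across animals. GLUL had 377, 526 and 339 CPM in saline, 349, 459 and 356 CPM in ASO and 335, 296 and 241 CPM in OTV animals. The OTV animals were the 3 lowest, by a narrow gap, and the log2 fold change against saline was -0.47 (SE 0.22, edgeR adjusted p = 0.165). KCNJ10 had 107, 171 and 102 CPM in saline, 144, 236 and 102 CPM in ASO and 229, 193 and 166 CPM in OTV animals, overlapping, with a log2 fold change of 0.67 (SE 0.32, edgeR adjusted p = 0.189). Its 3 lowest values were those of the LHX2 libraries saline 1, saline 3 and ASO 3. Without these 3 the log2 fold change was 0.26 (adjusted p = 0.723), and with the regional score term 0.30 (adjusted p = 0.525).

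GFAP, the filament gene, varied most, with a 15.9-fold range over the 9 animals. It had 403, 286 and 122 CPM in saline, 645, 308 and 233 CPM in ASO and 73.8, 1037 and 65.0 CPM in OTV animals. OTV 2 was the highest of all 9 and OTV 1 and OTV 3 the lowest, so the OTV mean of 392 ± 559 CPM (SD, n = 3) describes none of its animals. The log2 fold change against saline was 0.48 (SE 1.03, edgeR adjusted p = 0.790) with OTV 2 and -1.86 (adjusted p = 0.0740) without it; against ASO it was -0.01 and -2.34 (adjusted p = 0.996 and 0.0310). Thinned, 38.9% of OTV 2 astrocytes had a GFAP UMI against 6.97% and 7.49% in OTV 1 and OTV 3. GFAP was unevenly spread over nuclei: the tenth of astrocytes richest in it held 44.8% to 77.8% of its UMIs per animal (51.0% in OTV 2). For SLC1A3, with many more UMIs, this was 22.1% to 34.7%, and for GJA1, with fewer, 25.4% to 72.4%. In OTV 3 it was 77.8% for GFAP on 225 UMIs and 72.4% for GJA1 on 174 UMIs.

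**Figure D4:**
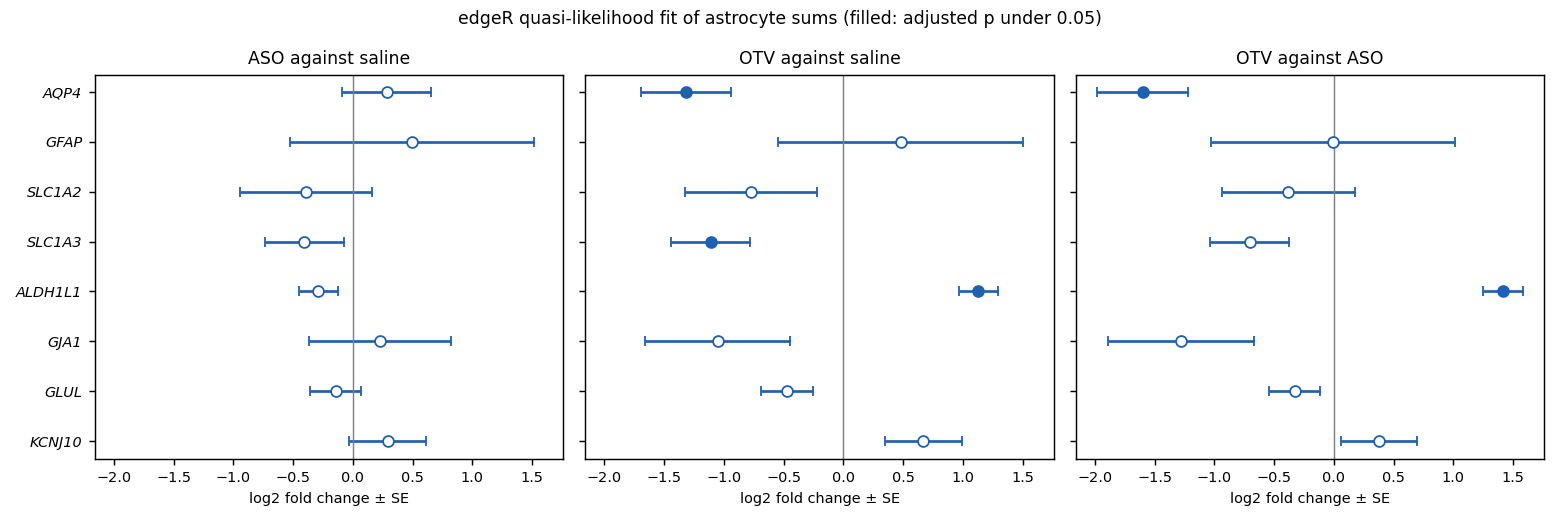
Log2 fold change ± SE of the 8 genes in astrocytes for the 3 comparisons, from edgeR's quasi-likelihood fit of 9 animals; filled points have an adjusted p under 0.05. ALDH1L1 (1.13 and 1.42) and AQP4 (-1.32 and -1.60) are filled in both comparisons with OTV, SLC1A3 (-1.11) in OTV against saline, and no point in ASO against saline.

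Two-sided exact permutation of the astrocyte share of nuclei over 280 partitions gave p = 0.518, where 0.00357 is the smallest p this design allows. Astrocytes made up 2.53%, 7.87% and 9.61% of nuclei in saline, 5.73%, 1.16% and 5.15% in ASO and 5.01%, 4.73% and 12.6% in OTV animals, so the groups overlapped. Marker sums of other types moved in part with OTV inside the astrocyte sums. The 6 oligodendrocyte markers in the matrix summed to 346 to 405 CPM in saline, 439 to 691 CPM in ASO and 470.2 to 723 CPM in OTV animals, and MOBP, ST18 and MOG, of myelin and its cells, were called higher in OTV than in saline (MOBP at 44.4 against 9.75 CPM). None of the 6 markers was at 0, and the part of free or neighbouring RNA in the results above was not tested. The 3 called genes had oligodendrocyte medians of 2.43 CPM (ALDH1L1), 13.02 CPM (AQP4) and 115 CPM (SLC1A3). The median depth of astrocytes was 3138 to 8208 UMIs in OTV and 6523 to 12279.5 UMIs in the other animals, and thinning to 1000 UMIs kept all 3 calls against saline (ALDH1L1 1.27, AQP4 -1.59, SLC1A3 -1.31; adjusted p 0.00573, 0.0318 and 0.0247).

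Other astrocyte genes were read from lists by function, beside 15.4% of all genes called in OTV against saline (6.27% higher and 9.12% lower). Of 11 transport and ion genes tested, 0 were called in OTV against saline, with a list median of 0.59. Of 14 metabolic genes 1 fell, with a median of -0.20. This was APOE, the lipid carrier that astrocytes secrete, at 762, 851 and 509 CPM in saline, 884, 813 and 537 CPM in ASO and 128, 97.6 and 57.5 CPM in OTV animals. Its log2 fold change of -2.86 (SE 0.34, edgeR adjusted p = 0.00130) was larger than that of any of the 8 genes, and no animal left out ended the call.

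Of 14 receptor genes 1 rose (FGFR3, 0.69, adjusted p = 0.0261) and 1 fell (BMPR1B, a BMP receptor, -0.77, adjusted p = 0.0107), with a median of -0.33. FGFR3 was not called with the regional term (adjusted p 0.0566) or without saline 1, saline 2, OTV 2 or OTV 3 (0.104, 0.0586, 0.0585 and 0.0788), nor BMPR1B without OTV 3 (0.0503). Of 9 transcription factors 2 fell, NFIA, which starts astrocyte fate (-0.68, edgeR adjusted p = 0.0292), and ID4 (-1.01, edgeR adjusted p = 0.0276), with a median of -0.33. NFIA was not called with the regional term (adjusted p 0.0729) or without saline 1, 2 or 3 or OTV 2 or 3 (0.0871, 0.0510, 0.0843, 0.0776 and 0.118), nor ID4 without saline 1, OTV 1 or OTV 3 (0.0927, 0.0830 and 0.118). These losses are not all: over the 19 alternatives FGFR3 lost its call in 8, BMPR1B in 2, NFIA in 9 and ID4 in 5. Of 9 endfoot and junction genes and 13 reactive genes, 0 were called, with medians of -0.012 and -0.65, while the median over all genes was -0.02. In ASO against saline 0 genes of these 6 lists were called.

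In OTV against ASO the endfoot list had 0 genes higher and 1 lower, CLDN10 (-0.96, edgeR adjusted p = 0.0253), and the transport list 0 of 11 called. CLDN10 lost its call without ASO 2, ASO 3, OTV 2 or OTV 3 (adjusted p 0.0657, 0.0689, 0.0689 and 0.107). FGFR3 (0.92) and PYGB, glycogen phosphorylase (0.98), were higher, and APOE (-2.89), BMPR1B (-0.64) and NFIA (-0.65) were lower (edgeR adjusted p 0.00619, 0.00611, 0.000836, 0.0170 and 0.0276). FGFR3, PYGB and APOE kept these calls with any animal left out; BMPR1B lost it without ASO 2 or OTV 3 (0.0557 and 0.0715) and NFIA without ASO 1, 2 or 3 or OTV 2 or 3 (up to 0.107). Of 13 reactive genes 2 were lower, against 12.5% of all genes in OTV against ASO. These were TNC (-1.82, edgeR adjusted p = 0.0457) and TIMP1 (-2.15, edgeR adjusted p = 0.0149), the latter at only 1.13 against 4.79 CPM. TNC lost its call without saline 3, any ASO animal, OTV 1 or OTV 3 (up to 0.125), and TIMP1 without ASO 1, OTV 1 or OTV 3 (up to 0.0733). Over all 19 alternatives CLDN10 lost its call in 6, BMPR1B in 3, NFIA in 8 and TNC in 12.

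OTV 2, the animal high in GFAP, was also the highest of the 9 in 6 of the 11 reactive genes with at least 100 UMIs in the other 8 animals, GFAP not counted, and in 15.2% of all 12987 such genes. Among the 6 were SERPINA3, an acute phase protein, at 27.5 CPM against at most 6.75 CPM elsewhere, and CHI3L1 at 35.5 against at most 15.5 CPM. STAT3, the transcription factor of the reactive state, stood at 209 against at most 170.3 CPM, OSMR at 82.5 against at most 55.2 CPM and MAOB at 309.6 against at most 201 CPM. Others in the list were not high there: CRYAB, a small heat shock protein, was at 14.2 CPM, the lowest of the 9, VIM at 2.66 CPM against up to 22.4 CPM and TNC at 143 CPM against up to 385 CPM. Markers of other types also peaked in OTV 2, among them the OPC gene PCDH15 (135 against at most 46.8 CPM), the neuron gene SYT1 (86.9 against at most 85.1 CPM) and the ependymal gene DNAH9 (100.3 against at most 97.2 CPM). OTV 2 had 1127145 astrocyte UMIs, the fewest of the 9 animals. This describes 1 animal and has no test.

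Outside astrocytes 2 of the 8 genes were called with OTV, KCNJ10 in myeloid cells and OPCs and ALDH1L1 in OPCs. In myeloid cells KCNJ10 had 8.95, 12.6 and 18.6 CPM in saline, 13.5, 16.4 and 17.7 CPM in ASO and 38.3, 24.2 and 34.5 CPM in OTV animals. All OTV animals were above the other 6, with a log2 fold change of 1.28 against saline (SE 0.29, edgeR adjusted p = 0.0206) and 1.03 against ASO (SE 0.29, edgeR adjusted p = 0.0296), each on 26 to 146 UMIs per OTV animal. That is 1 of 8 genes higher and 0 lower in each. Of all genes in myeloid cells 4.76% and 9.42% were called higher, and the share called in either direction was not counted. These calls were lost without saline 1, saline 2, OTV 1 or OTV 3 (adjusted p 0.0801, 0.0735, 0.0740 and 0.0595) and without any ASO animal, OTV 1 or OTV 3 (up to 0.110). Without saline 1, saline 3 and ASO 3 the first was lost (0.0738) and the second was not (0.0323). Oligodendrocytes carry KCNJ10 at a higher level, and their markers summed to 733 to 869 CPM in saline, 916 to 1471 CPM in ASO and 1058 to 1643 CPM in OTV myeloid nuclei; their part in the result was not tested.

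In OPCs KCNJ10 had 52.9, 53.4 and 38.2 CPM in saline, 69.5, 94.5 and 61.3 CPM in ASO and 91.5, 65.3 and 66.8 CPM in OTV animals. Both treated groups lay above saline, and OTV against saline was called (0.68, SE 0.20, edgeR adjusted p = 0.0315; 1 of 8 genes, against 22.1% of genes). ASO against saline was not (0.58, SE 0.20, edgeR adjusted p = 0.325; 0 of 8, against 0.262%). The OTV call was lost without saline 1, 2 or 3 or OTV 1 (adjusted p 0.0540, 0.0584, 0.0802 and 0.121) without saline 3 and ASO 3 together (0.0609), without saline 1 as well (0.213) and with the regional score term (0.114). The oligodendrocyte markers in OPC sums were 379.6 to 627 CPM in saline, 803.5 to 1060.1 CPM in ASO and 725 to 1077 CPM in OTV animals; their part in the result was not tested. In oligodendrocytes KCNJ10 had 96.0, 95.8 and 88.0 CPM in saline, 111, 195 and 123 CPM in ASO and 211, 139 and 128 CPM in OTV animals. Both treated groups lay above saline without overlap here too, but both types come from the same animals. ASO 2 and OTV 1 were the highest of their groups in OPCs and in oligodendrocytes. How many of all genes separate in this way was not counted. The log2 fold change was 0.58 for ASO (SE 0.26, edgeR adjusted p = 0.417) and 0.83 for OTV (SE 0.26, edgeR adjusted p = 0.0542). OTV against ASO was 0.24 (edgeR adjusted p = 0.524). In OTV against saline 0 of 8 genes were called, against 19.2% of genes (0 of 8 also for ASO against saline and OTV against ASO, against 0.394% and 26.3%). The KCNJ10 change of OTV against saline in astrocytes differed from that in oligodendrocytes by -0.08 (edgeR adjusted p = 0.968).

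ALDH1L1, called in astrocytes, was also called higher in OPCs of OTV against ASO animals, at 36.7, 39.1 and 33.1 CPM against 19.3, 23.0 and 29.8 CPM (0.70, SE 0.23, edgeR adjusted p = 0.0417; 1 of 8 genes, against 27.2% of genes). It was lost without saline 1, ASO 1, ASO 2, OTV 1, OTV 2 or OTV 3 (adjusted p 0.0635, 0.148, 0.111, 0.0991, 0.127 and 0.0673). Against saline animals (27.0, 22.6 and 38.5 CPM) the OPC values overlapped, at 0.37 (adjusted p = 0.267).

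SLC1A3 in myeloid cells was lower in both treated groups than in saline without passing edgeR's test. It had 1887, 1835 and 2392 CPM in saline, 952, 762 and 1151 CPM in ASO and 1547, 944 and 515 CPM in OTV animals. The log2 fold change was -1.14 for ASO (SE 0.35, edgeR adjusted p = 0.302; 0 of 8 genes, against 0.197%) and -1.07 for OTV (SE 0.35, edgeR adjusted p = 0.0833). DESeq2 gave adjusted p of 0.0347 and 0.0134 for the same changes. Without saline 1, saline 3 and ASO 3 the OTV value was -0.89 (adjusted p = 0.476), and without OTV 1 it was -1.54 (adjusted p = 0.0144). The 6 myeloid markers in these sums were also not even, at 3737 to 4221 CPM in saline, 4041 to 4679 CPM in ASO and 2817 to 3667 CPM in OTV animals. Their relation to the SLC1A3 values was not tested. Astrocyte SLC1A3 overlapped between ASO and saline animals, at -0.41 (SE 0.33, edgeR adjusted p = 0.970). Whether its change differs between astrocytes and myeloid cells was not tested.

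**Figure D5:**
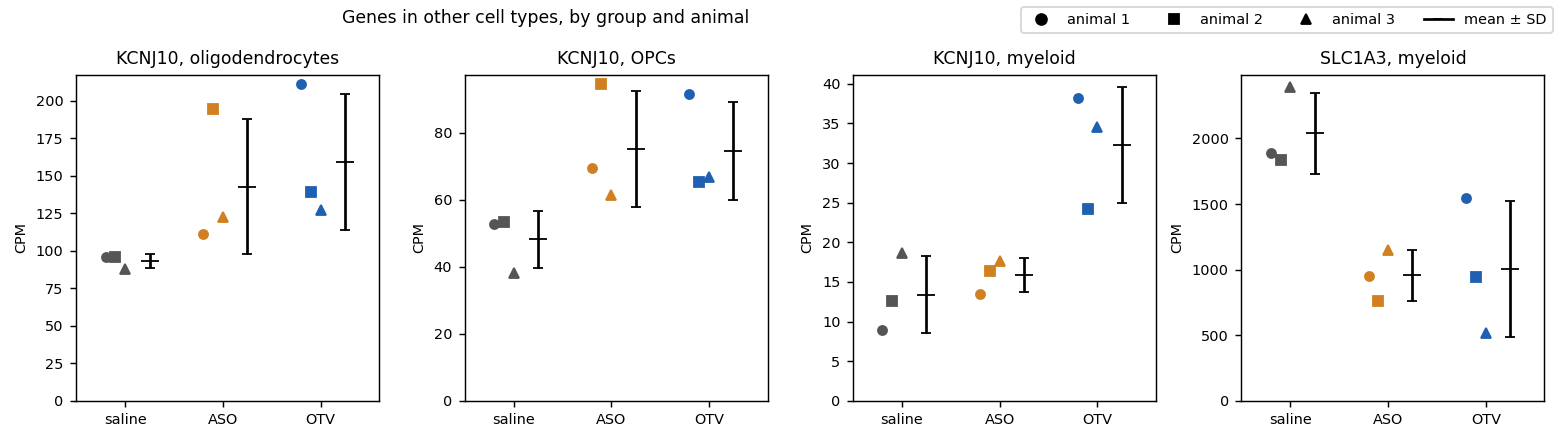
CPM of KCNJ10 in oligodendrocytes, OPCs and myeloid cells and of SLC1A3 in myeloid cells, 1 point per animal, with mean ± SD per group of 3. KCNJ10 in OTV animals lies above saline in each of the 3 types, and in ASO animals in oligodendrocytes and OPCs. Myeloid SLC1A3 in both treated groups lies below saline. How many of all genes separate in this way was not counted.

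A direct test of whether the change differed between astrocytes and oligodendrocytes, with animal as a block, called 0 of 8 genes in each comparison (of all genes, 0.0648% were called for ASO against saline; the shares with OTV were 0.247% against saline and 1.26% against ASO). At an unadjusted p under 0.05 there were 0, 2 and 1. For OTV against saline SLC1A3 differed by -0.999 (edgeR adjusted p = 0.308) and GLUL by -0.67 (edgeR adjusted p = 0.297), astrocytes being lower, and for OTV against ASO SLC1A2 differed by -2.35 (edgeR adjusted p = 0.240). AQP4 and ALDH1L1 differed by -1.15 and 0.63 in OTV against saline (edgeR adjusted p = 0.693 and 0.554). Their oligodendrocyte medians were 13.02 and 2.43 CPM, and that of SLC1A2 was 22.0 CPM. The SEs of these differences were 0.80 for AQP4, 0.32 for ALDH1L1 and 0.84 for SLC1A2. With SEs of this size the test cannot decide whether a change is particular to astrocytes. The calls in astrocytes are therefore not shown to be particular to them. In neurons 3 of the 8 genes passed the filter on low counts and 0 were called (0, 6.82% and 5.23% of genes were called in the same order), with 17 to 527 neurons per animal.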

How the data were processed

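Single nuclei of 9 animals were counted in droplets (10x Genomics). The deposited matrix holds raw UMI counts per gene and nucleus; the deposited table of nuclei gives total counts, animal, cluster, cell type and a doublet score, all as made by the authors. The submitters' processing notes name Cell Ranger 6.1.2, Seurat 4 and GRCh38.p13, a human build, whereas features without a symbol carry macaque Ensembl identifiers. All deposited nuclei are marked singlets. Counts were summed per animal and type and fitted with edgeR 4.0.16 (R 4.3.3; TMM, filterByExpr, robust quasi-likelihood, 9 animals, Benjamini-Hochberg over all genes tested, called under 0.05); SE is the log2 fold change over the root of F. Median log2 fold changes of all genes stayed within 0.1 of 0.

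The members, gene lists and tests were chosen with earlier results of these data known. Some genes of the lists are not reported here and stay out of the list counts and the region score. Named genes are the 8, up to 3 higher and 3 lower called genes per list and comparison, and the 2 most similar per gene; genes named for region, cluster 16 and OTV 2 were chosen after their values were seen. The region score is mean log2(CPM + 1) of LHX2, EMX2 and NR2E1 minus that of IRX1, IRX2, IRX3, IRX5 and OTX2. Alternatives were DESeq2 1.42.0 (test or size factors), no filter, the 6 animals compared, cluster 6 alone, thinning, doublet scores, the region score and each animal left out; those leaving out several animals, and the regional nuclei, were added after seeing the data.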

Additional observations from a re-analysis of the deposited data

Results flagged for a closer look

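SLC1A2 lay lower in OTV than in ASO animals in OPCs and higher in myeloid cells, without overlap in either, and neither difference passed the test. In OPCs it was 373.7 ± 48.96 CPM in OTV and 566 ± 77.0 CPM in ASO animals (SD, n = 3 each), a ratio of 0.66 (edgeR adjusted p = 0.0548). In myeloid cells it was 68.7 ± 39.7 CPM in OTV and 14.3 ± 13.6 CPM in ASO animals, a ratio of 4.80 (edgeR adjusted p = 0.195), on 21 to 156 UMIs per animal. The difference between the types was not tested. Among saline animals the myeloid values ran from 9.79 to 129 CPM. The 5 OPC markers in myeloid sums ran from 25.2 to 125 CPM in saline, 26.4 to 49.1 CPM in ASO and 106 to 162 CPM in OTV animals. Their part in the SLC1A2 values was not tested, nor was that of RNA from astrocytes, whose SLC1A2 median was 5530.2 CPM.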

How the results depend on the processing

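No paired analysis was possible because the labels give no numbers that link animals of different groups. The count of the 8 genes called in astrocytes stayed at 0 for ASO against saline under all 19 alternatives. For OTV against saline it was 1 to 4 (1 to 3 with an animal left out, and 1 without saline 1, saline 3 and ASO 3), and for OTV against ASO 1 to 3, also with an animal left out. Of all genes 5.05% (without those 3) to 18.1% (DESeq2) were called in the first and 11.3% to 24.2% in the second. The exact p of the astrocyte share ran from 0.346 to 0.918. With an animal left out, ASO against saline changed sign for GFAP (-0.033 to 0.90), SLC1A2 (-1.17 to 0.089), GJA1 (-0.24 to 0.63), GLUL (-0.31 to 0.053) and KCNJ10 (-0.12 to 0.56), and so did OTV against saline for GFAP (-1.86 to 1.01). GFAP of OTV against saline was -0.10 with the region score. SLC1A2 was 0.28 with the region score and 0.22 without saline 1, saline 3 and ASO 3. In OTV against ASO GFAP was 0.025 with DESeq2 size factors, 0.041 by DESeq2, 0.0093 with the 6 animals compared and -2.34 to 0.55 with an animal left out. SLC1A2 there was 0.51 with the region score, 0.42 without saline 3 and ASO 3, 0.40 without saline 1 as well and -0.74 to 0.39 with an animal left out. The causes were not tested. AQP4 in OTV against saline was not called without the filter on low counts (adjusted p = 0.0765), nor SLC1A3 in cluster 6 alone (0.0580) or with DESeq2 size factors (0.0543). Depth limits OTV 2, with 96 to 4335 UMIs per gene in astrocytes, and levels under about 5 CPM outside astrocytes.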

Other observations

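Markers of further cell types were also present in the astrocyte sums. Of 5 OPC markers, all in the matrix, the sum ran from 81.8 to 313 CPM over the 9 animals, with 0 of the 4 tested called in any comparison. The 6 myeloid markers summed to 13.7 to 74.7 CPM, with 0 of the 5 tested called. In all, 3 endothelial markers of 5 listed summed to 5.31 to 10.4 CPM, with 0 of the 1 tested called. The 6 neuron markers summed to 113 to 217 CPM. Among them GAD1, the enzyme that makes GABA, had 73.8, 82.4 and 77.4 CPM in saline, 91.8, 58.2 and 135 CPM in ASO and 18.9, 11.5 and 12.1 CPM in OTV astrocytes, a log2 fold change of -2.36 against saline (SE 0.31, edgeR adjusted p = 0.00172). The libraries of ASO 1, ASO 3 and OTV 2, at 91.8, 135 and 11.5 CPM, held 18, 467 and 112 neurons. The part of neuron RNA in these values was not tested. In OTV against ASO GAD1 was -2.59, SNAP25 0.99 and SLC17A6 4.32 (edgeR adjusted p = 0.000839, 0.0459 and 0.0122), the last at 7.88 against 0.51 CPM. The 3 mural markers summed to 146 to 169 CPM in saline, 189 to 204 CPM in ASO and 123 to 137 CPM in OTV animals, and RGS5 was lower in OTV than in ASO (-0.99, edgeR adjusted p = 0.0166). The 3 ependymal markers summed to 58.1 to 159 CPM, with 0 called. Of the striatal markers 4 were in the matrix, and their sum ran from 6.76 to 186 CPM in saline, 2.74 to 53.3 CPM in ASO and 9.76 to 48.9 CPM in OTV animals. Most of it was PDE10A, at 181 CPM in saline 3 and 50.2 CPM in ASO 3, which was the 1 marker tested and was not called. DRD1 had 2 UMIs over the astrocytes of all animals.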
